A study of Homo sapiens with 6 samples.

Results

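The long noncoding RNA sin-lncRNA and 9 protein-coding genes that surround it on human chromosome 20 were followed in senescent fibroblasts after the lncRNA had been depleted. The 10 genes were taken by name from the 57819 genes of the deposited table: the siRNA target, listed under its clone-based name RP4-530I15.6 (current symbol RIPOR3-AS1), and FAM65C (now RIPOR3), PTPN1, PARD6B, BCAS4, ADNP, DPM1, MOCS3, KCNG1 and TMEM189 (now PEDS1). The test took genes whose normalized reads averaged 10 or more, which were 19048 in all and included all 10. The cells were IMR90, which are human lung fibroblasts, in the form named ER:Ras. This form carries a Ras oncogene fused to a part of the estrogen receptor that 4-hydroxytamoxifen (4OHT) switches on. Every library came from cells labelled with 4OHT, given at 200 nM for 3 days. The control group (n = 3 libraries) received the scrambled siRNA named siSCR and the knockdown group (n = 3 libraries) the siRNA against sin-lncRNA, named si1 in the labels. The table's knockdown columns carry a longer form of that name, whose ending the labels do not explain, and were matched by replicate number. Each group has 1 siRNA name, so an effect of losing the lncRNA and any other effect of the siRNA used cannot be told apart. Untreated cells were not analysed here, so the rise of any of these genes on entry into senescence could not be measured. Nothing in the labels says that the replicates came from separate cultures, and p-values then measure only the spread between these libraries.

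Libraries held 22117324 to 50913672 reads in genes, and the 3 knockdown libraries were the shallowest. A fit after thinning every library to one depth is among the alternatives. Of 9 fibroblast markers, 9 were above 1 RPM (reads scaled to a common library size, in the usual unit of that name) in every library, with a summed level of 40473 to 42288 RPM in controls and 40630 to 42079 RPM in knockdowns. Blood markers summed to at most 0.356 RPM in any library. The epithelial list summed to 24.3 to 25.9 RPM in controls and 26.8 to 29.6 in knockdowns, nearly all of it KRT8 and KRT18, while KRT5 was at 0 in all libraries and EPCAM did not exceed 0.533 RPM. The endothelial list, nearly all of it VWF, summed to 1.70 to 1.90 RPM in controls and 2.29 to 2.71 in knockdowns. Both lists were thus a little higher in every knockdown library, and their part in the results was not tested.

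An antisense lncRNA is transcribed from the strand opposite a protein-coding gene. Such RNAs can act in cis, on the genes beside their own site of transcription, or in trans, elsewhere in the cell, and the levels of neighbouring genes after depletion are the usual first readout for the former. An siRNA acts on the RNA after it has been made, chiefly by guiding its cleavage, and leaves the DNA of the locus in place. In oncogene-induced senescence, activated Ras drives fibroblasts into a lasting arrest of division with a secretory programme in which the transcription factor C/EBPβ takes part. Its gene, CEBPB, lies on the same stretch of chromosome 20.

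In the table, whose coordinates are hg19 per the submitters' processing notes, sin-lncRNA (ENSG00000234693.1) covers positions 49262008 to 49278812 of chromosome 20, is read from the plus strand and is typed as antisense. Its annotation in GENCODE 29 (GRCh38) has 2 spliced transcripts, 1 of 638 nt with 3 exons and 1 of 539 nt with 4 exons. They start 7.73 kb apart and share 213 bases of exon. That shared stretch is shown because reads from it belong to both transcripts, so the count of the gene does not tell them apart (GENCODE 29, GRCh38, plus strand, chr20:50659866-50660078).
sin-lncRNA shared exon: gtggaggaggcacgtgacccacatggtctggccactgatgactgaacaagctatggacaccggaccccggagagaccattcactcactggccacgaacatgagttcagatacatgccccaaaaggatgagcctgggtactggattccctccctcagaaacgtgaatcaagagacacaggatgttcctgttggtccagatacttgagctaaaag
The start of the lncRNA is shown next, with the start of FAM65C for comparison, because their positions decide how the pair is described. Each line runs 5′ to 3′ on the gene's own strand and comes from RefSeq on GRCh38.p14, with 250 bases before the start in lower case and the first 50 transcribed bases in capitals. The first lies at chr20:50645221-50645520 (plus strand) and the other at chr20:50636744-50637043 (minus strand).
sin-lncRNA (RIPOR3-AS1) promoter: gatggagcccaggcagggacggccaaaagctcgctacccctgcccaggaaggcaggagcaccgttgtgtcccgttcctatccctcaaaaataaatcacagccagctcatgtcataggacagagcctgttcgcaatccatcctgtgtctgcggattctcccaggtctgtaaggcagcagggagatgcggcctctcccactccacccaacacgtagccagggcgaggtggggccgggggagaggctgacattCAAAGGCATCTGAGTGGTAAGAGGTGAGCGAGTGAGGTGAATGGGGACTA
FAM65C (RIPOR3) promoter: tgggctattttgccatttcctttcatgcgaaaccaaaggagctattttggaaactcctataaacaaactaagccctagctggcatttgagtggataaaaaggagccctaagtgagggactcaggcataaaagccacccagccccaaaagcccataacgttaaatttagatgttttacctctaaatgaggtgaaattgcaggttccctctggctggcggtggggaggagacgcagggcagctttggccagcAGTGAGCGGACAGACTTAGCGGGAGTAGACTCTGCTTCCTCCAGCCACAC
These starts are 8678 bp apart and point away from each other. Of 6 FAM65C transcripts in GENCODE 29, 5 start before the lncRNA and do not reach it, and 1 starts beyond its end and runs across it. The table's gene model includes such a long form, so that its FAM65C start lies 46.1 kb on the far side of the lncRNA start. None of the lncRNA's 964 exon bases are shared with exons of FAM65C or of any other gene in GENCODE 29 (0 bases). The search of 10 RefSeq promoter windows of 7 of the 10 genes covered both strands. The C/EBP core motif, TTGCNNAA, was in 0 of them and in 10.5% of all 35116 windows of that length. The AP-1 core motif, TGANTCA, was in 1 window, of an ADNP start, and in 7.71% of all windows. The windows of BCAS4 overlap each other, as do those of DPM1 and MOCS3. So few windows cannot show whether either motif is rarer or more common here than elsewhere.

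Sin-lncRNA fell to 13.3% of its control level. It was at 3.70, 4.73 and 4.09 RPM in control replicates 1, 2 and 3 and at 0.493, 0.640 and 0.534 RPM in knockdown replicates 1, 2 and 3. All knockdown libraries were far below all controls, and the exact Poisson 95% intervals of the libraries, which cover counting error only, did not meet: the highest upper bound among knockdowns was 1.06 RPM and the lowest lower bound among controls 3.08 RPM. These levels rest on 126, 142 and 206 reads for the controls and on 11, 15 and 15 for the knockdowns. The log2 fold change was -2.86, with an SE of 0.18 and an adjusted p of 7.94e-07 (limma on the log2 values of all tested genes, Benjamini-Hochberg adjustment, called below 0.05), which ranked 1 among falls of the 19048 genes. The exact permutation test over libraries gave p = 0.1 (two-sided), the smallest that 3 against 3 allows. On the log2(RPM + 5) scale, which compresses genes at this level, the change was -0.72, and on the log2(RPM + 1) scale it was -1.73.

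**Figure D1:**
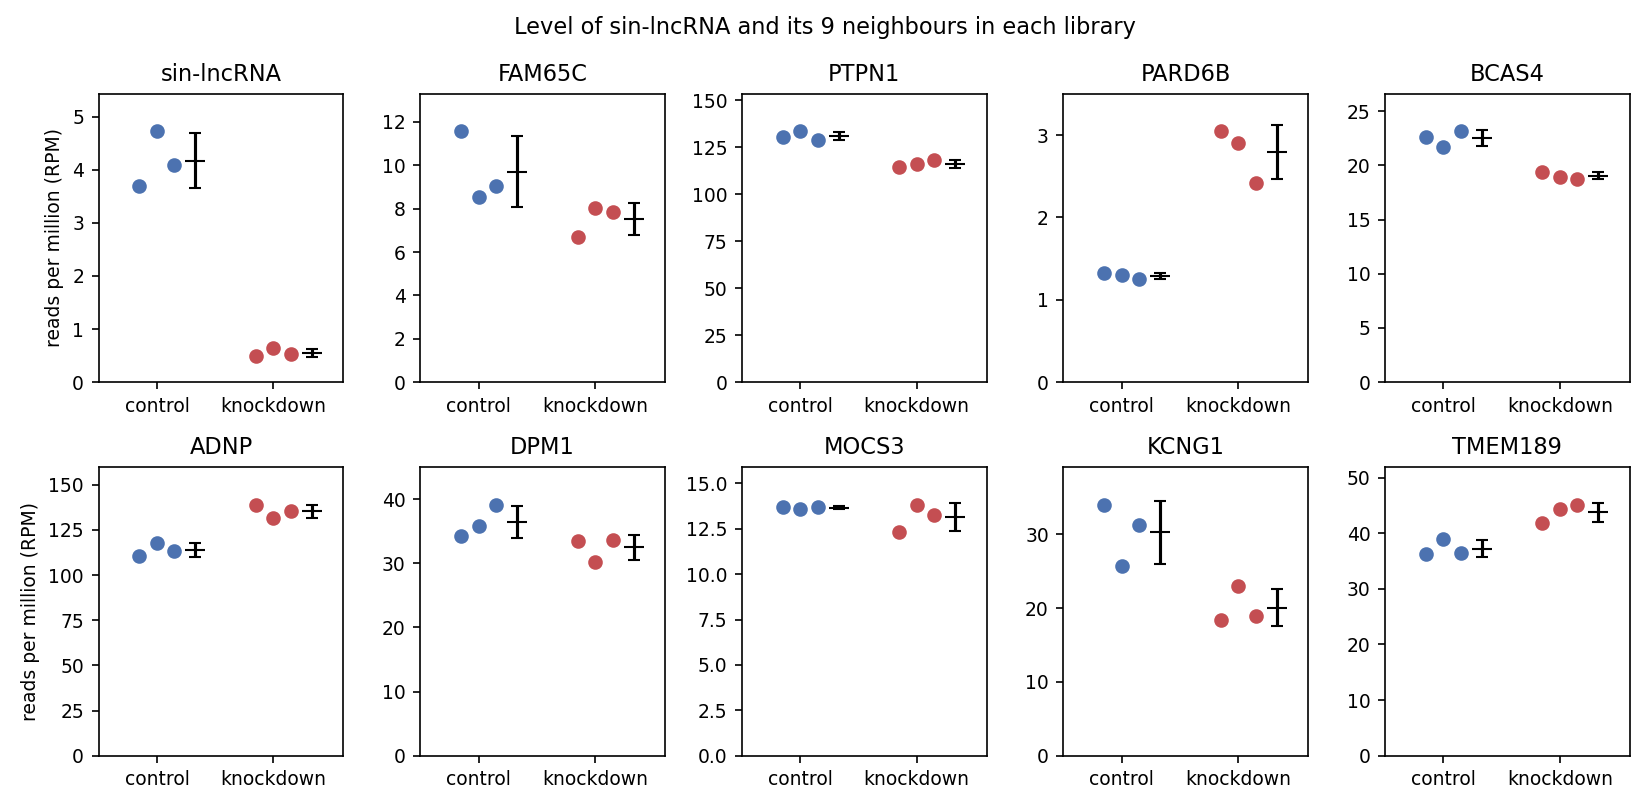
Levels in RPM (y axis, from 0, a scale for each gene) of sin-lncRNA and its 9 neighbours in the 3 control (blue) and 3 knockdown (red) libraries, replicates 1 to 3 from left to right, with the mean ± SD in black. The groups are apart in 9 of the 10 genes and overlap in MOCS3, and PARD6B and sin-lncRNA have the widest gaps in relation to their level.

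FAM65C, the gene on the other strand, was lower in knockdowns by a small margin, and its call did not always hold when 1 library was left out. It encodes a member of the RIPOR protein family. Its level was 11.6, 8.52 and 9.02 RPM in controls and 6.68, 8.03 and 7.84 RPM in knockdowns. The groups did not overlap, but the gap between the lowest control and the highest knockdown was smaller than the SD of either group. The log2 fold change was -0.36, with an SE of 0.12 and a limma adjusted p of 0.0364. Without control replicate 1, the highest library, it was -0.23 and no longer called (limma adjusted p = 0.123). Without knockdown replicate 1 it was -0.28 and likewise not called (limma adjusted p = 0.124). It also failed the test without control replicate 3 (-0.41, limma adjusted p = 0.0574) or knockdown replicate 3 (-0.39, limma adjusted p = 0.0661). In these last fits the fall was larger than with all libraries, but so was the SE (0.144 and 0.145). Over all alternative settings the adjusted p in limma ran from 0.0021, in the fit without a filter on reads, to 0.124. For each FAM65C read, control libraries had 0.320, 0.555 and 0.454 reads of sin-lncRNA and knockdown libraries 0.0738, 0.0798 and 0.0682. The ratio thus separated the groups in every library (exact permutation p = 0.1, two-sided). The related genes FAM65A (log2 fold change 0.03) and FAM65B (-0.32) did not pass the test, with adjusted p of 0.676 and 0.19 in limma.

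PARD6B had the largest change of the 9 neighbours and the largest rise. It encodes an adaptor of the PAR polarity complex, which joins PAR3, atypical protein kinase C and the GTPase CDC42 at the cell cortex. Its start lies 86.1 kb from that of sin-lncRNA on the same strand, downstream of it. PARD6B was at 1.32, 1.299 and 1.25 RPM in controls and 3.05, 2.90 and 2.42 RPM in knockdowns. The controls lay close together, and every knockdown library was above all of them. The level was low, with 39 to 63 reads in controls and 68 reads in each knockdown library. Its log2 fold change was 1.10, with an SE of 0.15 and a limma adjusted p of 0.000209, and 2.08% of all genes tested had a larger change in either direction. It was called in all 18 alternative fits, with log2 fold changes of 1.03 to 1.20 when 1 library was left out and 1.04 in thinned libraries. On the log2(RPM + 1) and log2(RPM + 5) scales it was 0.72 and 0.31. No exon bases of PARD6B are shared with another gene in GENCODE 29.

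Of 7 other genes of the polarity complex that were tested, 1 rose and 0 fell, where 48.6% of protein-coding genes were called. The one that rose was PARD6G, a paralogue of PARD6B, from 13.6 ± 2.5 to 17.1 ± 1.1 RPM (SD, n = 3), with a log2 fold change of 0.35 (limma adjusted p = 0.0346). The third paralogue, PARD6A, was near 0.5 RPM in both groups and was not called. The scaffold PARD3 (log2 fold change -0.0044), the kinases PRKCI (0.05) and PRKCZ (0.26), CDC42 (0.11) and LLGL1 (-0.14), an opponent of the complex, did not pass the test.

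PTPN1, the nearest neighbour at lower coordinates, and BCAS4, the next one after PARD6B at higher coordinates, were both slightly lower in knockdowns. PTPN1 encodes PTP1B, a tyrosine phosphatase of the endoplasmic reticulum that acts on the insulin receptor and JAK kinases. It starts 135.1 kb away at lower coordinates and was at 130.5, 133.6 and 129.0 RPM in controls and 114.3, 115.9 and 118.1 RPM in knockdowns. The log2 fold change was -0.17, with an SE of 0.04 and a limma adjusted p of 0.00585. BCAS4, first described as a gene amplified in breast cancer and related in sequence to a BLOC-1 subunit, starts 149.4 kb away at higher coordinates. BCAS4 was at 22.6, 21.7 and 23.1 RPM in controls and 19.4, 19.0 and 18.7 RPM in knockdowns. Its log2 fold change was -0.24, with an SE of 0.06 and a limma adjusted p of 0.00744. Neither gene's groups overlapped, and both calls held in all 18 alternative fits. The changes were small beside the transcriptome: 59.9% of genes tested had a larger change than PTPN1 and 47.4% a larger change than BCAS4.

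The PTPN1 paralogue PTPN2 and the substrates INSR, JAK2 and TYK2 were all not called (0 of 4), with log2 fold changes between -0.22 and -0.0010. Subunits of BLOC-1, a complex that sorts cargo to lysosome-related organelles, moved in both directions. Of 8 tested, 2 rose and 3 fell (62.5% called), where 48.6% of protein-coding genes were called. BLOC1S2 (log2 fold change 0.30) and BLOC1S6 (0.20) rose, and BLOC1S1 (-0.31), BLOC1S3 (-0.22) and BLOC1S5 (-0.32) fell.

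ADNP was higher in knockdowns, while DPM1 and MOCS3, the pair of genes beyond it, were not called. ADNP encodes a zinc finger and homeodomain protein that forms the chromatin complex ChAHP with CHD4 and HP1 proteins. Its level was 110.4, 117.8 and 113.2 RPM in controls and 139.0, 131.8 and 135.5 RPM in knockdowns, with no overlap. The log2 fold change was 0.25, with an SE of 0.04 and a limma adjusted p of 0.00109, and it was 0.23 to 0.28 when 1 library was left out. An antisense gene at its start, RP5-914P20.5, shares 121 exon bases with it in GENCODE 29 and had 11 to 33 reads per library, against 3088 to 5698 for ADNP. Of the ChAHP genes and the paralogue ADNP2, 1 of 4 was called, where 48.6% of protein-coding genes were. CBX1, the gene of HP1β, rose from 70.5 ± 0.7 to 87.9 ± 0.7 RPM (SD, n = 3), which is 0.32 on the log2 scale (limma adjusted p = 0.000157). CHD4, CBX3 and ADNP2 were not called (log2 fold changes -0.08, 0.04 and -0.09).

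DPM1 is the catalytic subunit of dolichol-phosphate mannose synthase, which supplies mannose for glycosylation in the endoplasmic reticulum. MOCS3 activates small sulphur-carrier proteins for molybdenum cofactor synthesis and for thiolation of transfer RNA. They sit head to head, with RefSeq starts 254 and 286 bp apart for the 2 DPM1 starts given. The stretch before the MOCS3 start is shown because it lies between starts that point away from each other (RefSeq, GRCh38.p14, plus strand, chr20:50958568-50958867, with the first 50 bases of MOCS3 in capitals). The nearer DPM1 start lies 4 bases before the line begins, on the opposite strand.
MOCS3 promoter: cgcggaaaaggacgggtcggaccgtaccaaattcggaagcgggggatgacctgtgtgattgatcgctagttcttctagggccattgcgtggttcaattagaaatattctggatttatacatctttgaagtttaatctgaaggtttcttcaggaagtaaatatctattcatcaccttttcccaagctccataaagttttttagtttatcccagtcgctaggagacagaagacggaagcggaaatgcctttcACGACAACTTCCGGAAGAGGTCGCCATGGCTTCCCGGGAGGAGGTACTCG
DPM1 was at 34.3, 35.8 and 39.1 RPM in controls and 33.5, 30.3 and 33.6 RPM in knockdowns. The log2 fold change was -0.16, with an SE of 0.07 and a limma adjusted p of 0.0704, so the difference did not pass the test although the groups did not overlap. Without control replicate 1 it passed, at -0.21 (limma adjusted p = 0.0392), and without control replicate 3 it was -0.11 (0.283; adjusted p over all settings, 0.0392 to 0.283). Leaving out knockdown replicate 2 gave -0.12 (limma adjusted p = 0.227). MOCS3 was at 13.7, 13.6 and 13.7 RPM in controls and 12.3, 13.8 and 13.3 RPM in knockdowns. Its groups overlapped, and the log2 fold change was -0.06, with an SE of 0.07 and a limma adjusted p of 0.552.

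The small partners of DPM1 fell. Of its 4 partners tested, 1 rose and 2 fell, where 48.6% of protein-coding genes were called. DPM2, a regulatory subunit of the synthase, went from 38.8 ± 0.6 to 28.99 ± 1.07 RPM (log2 fold change -0.42; limma adjusted p = 0.000122; SD, n = 3). DPM3, which tethers DPM1 to the membrane, went from 10.9 ± 2.4 to 6.71 ± 1.28 RPM (log2 fold change -0.70; limma adjusted p = 0.00754; SD, n = 3). DOLK, the kinase that makes dolichol phosphate, rose (log2 fold change 0.22), and MPDU1 was not called (0.01). Among the 9 partners of MOCS3, 2 rose, 1 fell and 6 were not called (33.3% called, beside the same 48.6%). XDH, an enzyme that uses the molybdenum cofactor, rose from 5.68 ± 0.53 to 8.78 ± 0.16 RPM (log2 fold change 0.63), and GPHN, which completes the cofactor, rose by 0.26. CTU2, a subunit of the enzyme that thiolates transfer RNA, fell from 22.4 ± 1.6 to 16.4 ± 1.5 RPM (log2 fold change -0.45). Adjusted p-values in limma were 0.000351 for XDH, 0.0167 for GPHN and 0.0014 for CTU2.

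KCNG1 had the largest fall of the 9 neighbours and was also the farthest of those at higher coordinates, at 377.7 kb on the opposite strand. It encodes Kv6.1, a potassium channel subunit that forms no channel alone and modifies other potassium channels. KCNG1 was at 34.0, 25.6 and 31.2 RPM in controls and 18.4, 22.9 and 18.9 RPM in knockdowns. The groups did not overlap, and control replicate 2 and knockdown replicate 2 lay closest to each other. The log2 fold change was -0.59, with an SE of 0.11 and a limma adjusted p of 0.00143, and 12.4% of genes tested had a larger change. It was called in all 18 alternative fits, and log2 fold changes ran from -0.71 to -0.50 when 1 library was left out. KCNB2, a channel gene listed as a partner of KCNG1, had 0 reads in all 6 libraries. For a gene without reads, the upper limit is 3 reads, which is 0.0596 to 0.134 RPM depending on the library. An antisense gene that overlaps KCNG1, RP5-955M13.4, had at most 1 read in a library.

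TMEM189 lies 491.7 kb away at lower coordinates on the opposite strand, beyond CEBPB, and was higher in knockdowns. It encodes the desaturase that forms the vinyl ether bond of plasmalogens. TMEM189 was at 36.3, 39.0 and 36.4 RPM in controls and 41.9, 44.3 and 45.1 RPM in knockdowns, with no overlap. Its log2 fold change was 0.23, with an SE of 0.06 and a limma adjusted p of 0.00599, called in all 18 alternative fits. Of its exon bases in GENCODE 29, 691 (8.71%) are shared with the readthrough gene TMEM189-UBE2V1. There TMEM189 covers only positions 50118254 to 50153734 of chromosome 20 (GRCh38). The table's TMEM189 spans 72673 bp and overlaps UBE2V1 by 34834 bp on the same strand, so that share may not hold for the exons counted. TMEM189-UBE2V1 is listed at 0 reads in all 6 libraries and UBE2V1 at 49 to 98. How reads on shared exons were assigned bears on these levels and was not tested. Of the other plasmalogen genes, AGPS rose (log2 fold change 0.28; limma adjusted p = 0.00517), and GNPAT, FAR1 and FAR2 were not called. UBE2N, the partner of the UBE2V1 protein in ubiquitin chain formation, fell by 0.23 on the log2 scale, and UBE2V1 itself was not called (-0.04).

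Levels per length were compared as RPKM (RPM per kb of exon), with exon lengths from GENCODE 29. These may differ from the exons the authors counted: for MOCS3 the GENCODE 29 exons span 5106 nt but the table's gene only 2458 bp, and the latter was used. For TMEM189 the table's gene spans 72673 bp and the GENCODE 29 gene is shorter, and the 7931 nt of exon of the latter were used. PTPN1 and DPM1 were highest in controls, at 32.4 ± 0.6 and 30.2 ± 2.1 RPKM (SD, n = 3), and did not differ beyond their spread. ADNP followed at 13.5 ± 0.4 RPKM. KCNG1 at 5.57 ± 0.78, MOCS3 at 5.56 ± 0.03, TMEM189 at 4.69 ± 0.19 and sin-lncRNA at 4.33 ± 0.54 RPKM came next, and neighbours in that order did not differ beyond their spread, apart from MOCS3 and TMEM189. BCAS4 was at 2.97 ± 0.10, FAM65C at 1.62 ± 0.27 and PARD6B at 0.273 ± 0.008 RPKM. Per length, sin-lncRNA was therefore above the gene that it runs antisense to in all 3 control libraries and below it in all 3 knockdown libraries, at 0.577 ± 0.079 against 1.25 ± 0.12 RPKM. PARD6B stayed the lowest of the protein-coding neighbours in knockdowns, at 0.591 ± 0.069 RPKM.

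Counted together, 7 of the 9 neighbours were called, 3 higher (PARD6B, ADNP and TMEM189) and 4 lower (FAM65C, PTPN1, BCAS4 and KCNG1). Over all genes tested, 41.0% were called by the same rule (17.5% higher and 23.5% lower), and over the 13002 protein-coding genes 48.6% were (22.2% higher and 26.4% lower). Of the 449 tested genes of chromosome 20, 43.0% were called. The groups did not overlap in 8 of the 9, which compares with 51.1% of all genes and 57.6% of protein-coding genes. The median log2 fold change of the 9 was -0.16 and the median size of change 0.24, beside -0.04 and 0.23 over all genes tested. A log2 change of at least 1 was seen in 1 of the 9, PARD6B, and in 2.95% of all genes as a call. The number called was 6 to 7 in every one of 19 alternatives, and 6 genes (PTPN1, PARD6B, BCAS4, ADNP, KCNG1 and TMEM189) kept their call and direction in all 18 alternative fits.

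**Figure D2:**
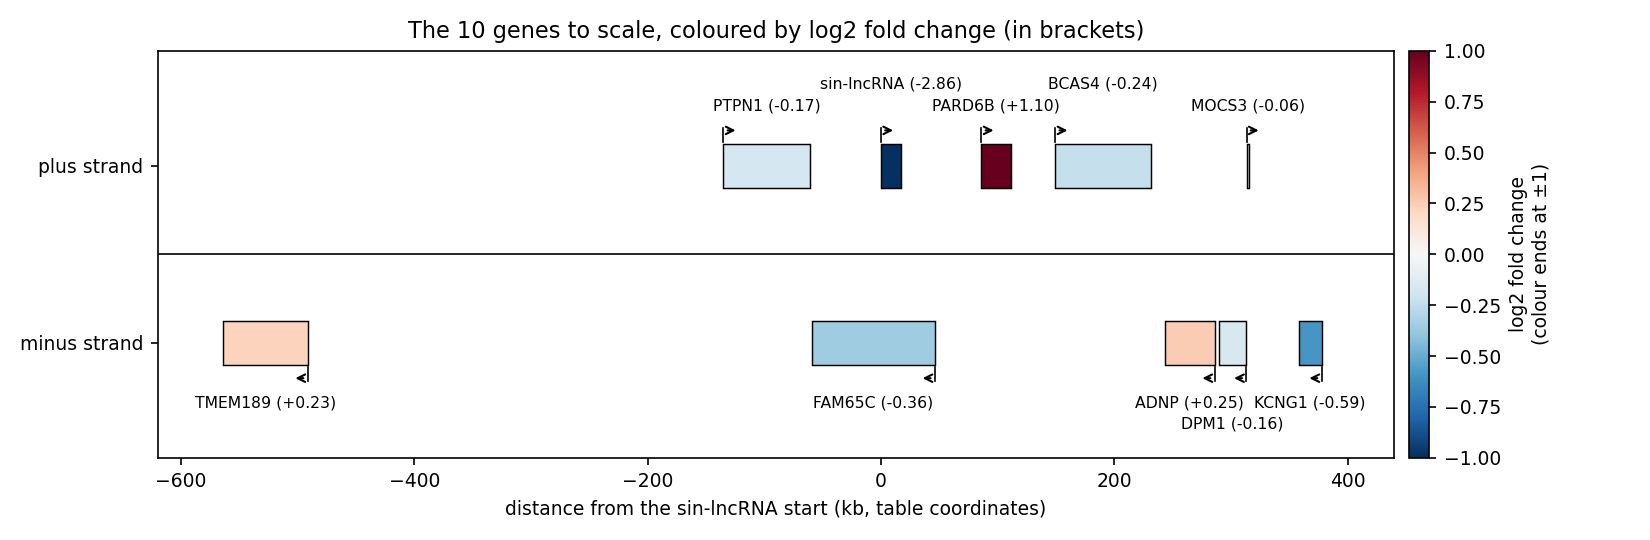
The 10 genes drawn to scale by distance in kb from the sin-lncRNA start (x axis), with plus-strand genes above and minus-strand genes below the line and arrows at the table's start sites. Colour and the number in brackets give the log2 fold change, knockdown minus control, and genes that rose and genes that fell lie on both strands.

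Neither strand nor side of the lncRNA went with 1 direction. On the same strand, 1 neighbour rose (PARD6B), 2 fell (PTPN1 and BCAS4) and 1 was not called (MOCS3). On the opposite strand, 2 rose (ADNP and TMEM189), 2 fell (FAM65C and KCNG1) and 1 was not called (DPM1). Of the 2 neighbours at lower coordinates, 1 rose and 1 fell, and of the 7 at higher coordinates, 2 rose and 3 fell. Distance did not order the directions either. The nearest neighbours by start site, FAM65C and PARD6B, moved in opposite directions, and the largest fall was at 377.7 kb. Over all tested genes, neighbours or not, the median size of change was 0.36 within 100 kb (3 genes) and 0.21 from 100 to 200 kb (2 genes). It was 0.18 from 200 to 400 kb (7 genes) and 0.22 from 400 to 1000 kb (12 genes). The nearest groups hold too few genes to relate the size of change to distance.

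**Figure D3:**
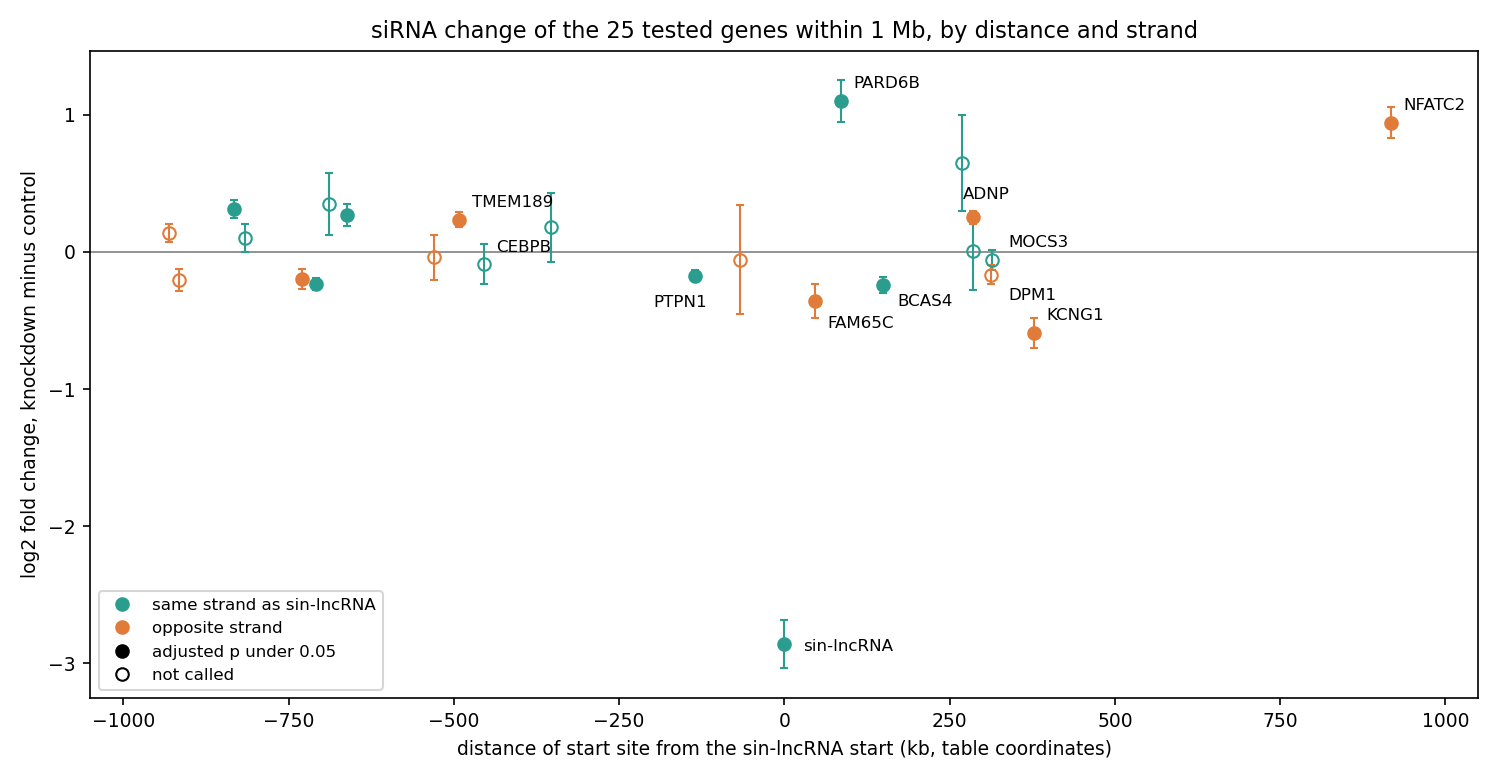
Log2 fold change, knockdown minus control, with its SE (y axis) of the 25 tested genes whose start lies within 1 Mb of the sin-lncRNA start (x axis, kb), coloured by strand, with filled points for an adjusted p under 0.05. Apart from sin-lncRNA at -2.86, the genes farthest from 0 are PARD6B at 1.10 and NFATC2 at 0.94, and points lie above and below 0 on both sides of the lncRNA and on both strands.

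The wider neighbourhood was read in the same fit. The table lists 52 other genes with a start within 1 Mb of the sin-lncRNA start, of which 14 had no reads in any library and 24 were tested. Of the 24, 6 rose and 6 fell (50.0% called, against 41.0% of all genes), with a median log2 fold change of -0.01. By distance, 2 of 3 tested genes were called within 100 kb, 2 of 2 from 100 to 200 kb, 2 of 7 from 200 to 400 kb and 6 of 12 from 400 to 1000 kb. Within the 1 Mb, 12 of 17 protein-coding genes were called, against 48.6% of all protein-coding genes tested, and 0 of 7 other genes, against 24.6% of all such genes tested. On the rest of chromosome 20, 46.7% of 45 tested genes were called from 1 to 5 Mb and 42.0% of 379 beyond 5 Mb. Leaving out 1 library gave 9 to 13 called genes within 1 Mb.

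Among the 15 tested genes within 1 Mb that were not chosen as neighbours, 5 were called (33.3%, beside 41.0% of all genes tested). These 15 include all 7 tested genes that are not protein-coding, of which 0 were called. The 5 called genes are all protein-coding, a type of which 48.6% were called over all genes tested. The share of 33.3% thus depends on the mix of gene types. NFATC2, a calcium-responsive transcription factor gene 917.4 kb away, rose from 4.25 ± 0.60 to 8.12 ± 0.33 RPM (SD, n = 3), with a log2 fold change of 0.94 with an SE of 0.11 and a limma adjusted p of 8.19e-05. SLC9A8, a sodium-proton exchanger of the Golgi, rose by 0.31 on the log2 scale, and SNAI1, a repressor active in epithelial-mesenchymal transition, by 0.27. RNF114, a ubiquitin ligase gene, fell by 0.23 and SPATA2, a linker of deubiquitinases to ubiquitin signalling complexes, by 0.20. Adjusted p-values in limma were 0.00287 for SLC9A8, 0.0194 for SNAI1, 0.00136 for RNF114 and 0.0471 for SPATA2. CEBPB, at 454.6 kb and so nearer than TMEM189, was at 56.3 ± 13.1 RPM in controls and 52.1 ± 5.3 RPM in knockdowns and was not called (log2 fold change -0.09; limma adjusted p = 0.664). The antisense gene inside PTPN1, RP4-530I15.9, had 5 to 15 reads per library and was not called (-0.06).

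The 47 partner genes, listed for what they do with the neighbours' products, included 44 that were tested. Of these, 8 rose and 7 fell, or 34.1% called, beside 41.0% of all genes and 48.6% of protein-coding genes. Their median log2 fold change was -0.0025. When 1 library was left out, 11 to 14 were called.

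Likeness to sin-lncRNA was measured as the root mean square difference between log2 deviations from each gene's own mean over the 6 libraries, a measure that holds the group difference. None of the 9 neighbours was close: they lay between 1.16 (KCNG1) and 1.99 (PARD6B). Because sin-lncRNA fell so far, any gene with a small change or a rise is distant by this measure. The distances therefore add little to the fold changes given above. The closest gene was GCH1 on chromosome 14, at 0.251, the gene of the first enzyme of tetrahydrobiopterin synthesis, which went from 2.51 ± 0.39 to 0.450 ± 0.091 RPM (SD, n = 3). GABRA4 on chromosome 4 (0.439), a GABA receptor subunit gene, ARRDC4 on chromosome 15 (0.524), an alpha-arrestin gene, and RP11-794G24.1 on chromosome 11 (0.535), a lincRNA gene, were also among the 5 closest. RP11-794G24.1 was low throughout, at 0.558 ± 0.137 RPM in controls and 0.120 ± 0.027 in knockdowns.

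**Figure D4:**
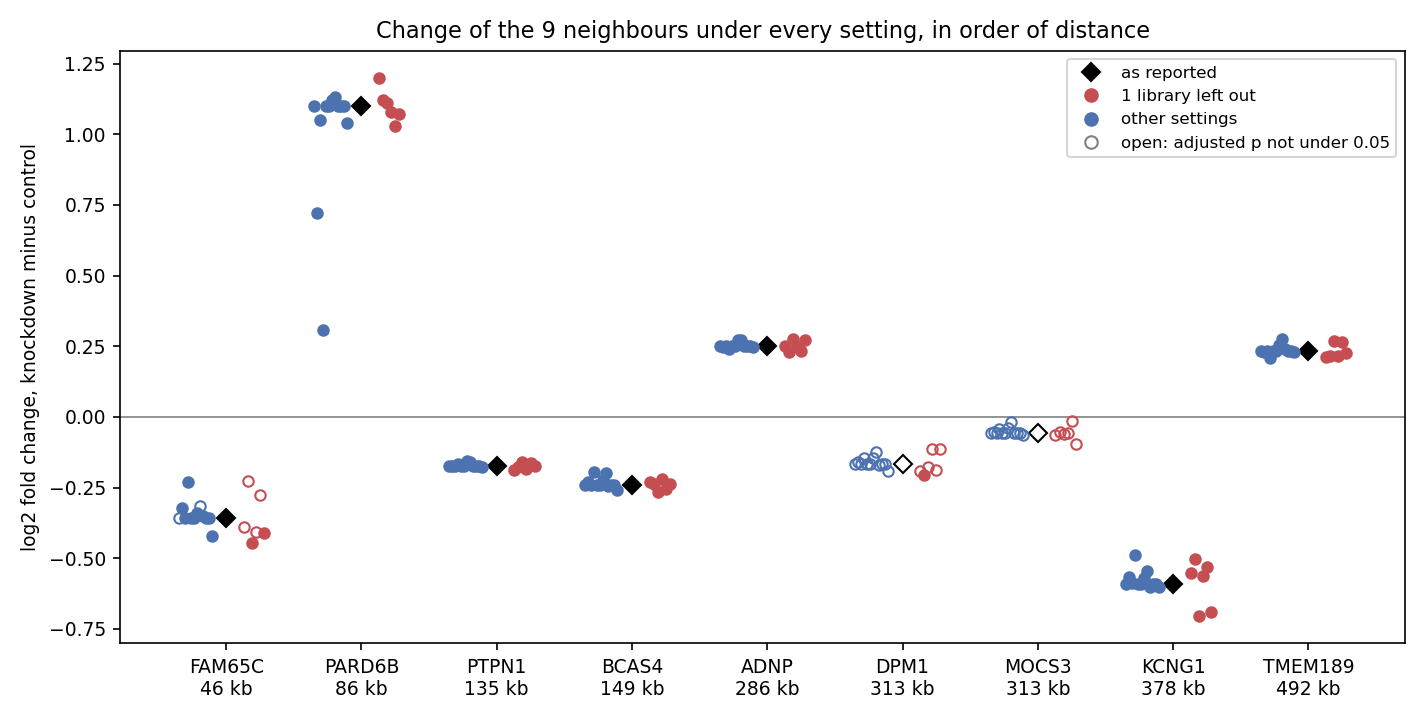
Log2 fold change, knockdown minus control (y axis), of the 9 neighbours in order of distance as reported (black), with 1 library left out (red) and under the other settings (blue), with open symbols where the adjusted p was not under 0.05. FAM65C and DPM1 have both open and filled symbols, MOCS3 has only open ones, and the 2 low PARD6B points are the log2(RPM + 1) and log2(RPM + 5) scales.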

How the data were processed

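PolyA RNA of 6 libraries was read as single 50 bp reads, per the labels' protocols. Bowtie2, featureCounts and hg19 are named in the submitters' processing notes. Versions, strand setting and annotation release are not given in the sources used here, so reads of overlapping genes on opposite strands may not be told apart. The authors deposited log2 values (log2 CPM with an offset of 0.5 reads on a scaled library size). Undoing the offset and scale gave whole reads within 0.02 for 100% of values. RPM here is those reads over the scaled size, in the same unit without the offset. The planned test assumed a linear or log2 table, and limma 3.58.1 (R 4.3.3, lmFit, eBayes with trend, group only, two-sided) was fitted on the deposited log2 values of 19048 genes with a mean of at least 10 normalized reads. P-values were adjusted by Benjamini-Hochberg over all of these and called at 0.05. The offset distorts fold changes of genes with few reads, since 0.5 reads are more RPM in the shallower knockdown libraries. Falls of such genes are understated, and small rises can be overstated. Without the filter on reads, the median log2 fold change of 57819 genes was 0.604, against -0.0394 with it.

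The members, the gene lists and the test were chosen with earlier results of these data known. Named were all members, called genes and some of the overlapping genes within 1 Mb, called partner genes and the 5 genes most like the target. The results of 1 of these 5 and of 1 partner gene are not reported here. Gene symbols of 4 lists of other cell types and 1 of fibroblasts served as a check of the cells: endothelial markers summed to at most 2.71 RPM and muscle markers to at most 8.20 RPM. On simulated counts of 19048 genes with 200 changed by a log2 of 1, the fit recovered 89.0% and voom 88.5%. Of their calls, 2.73% and 3.28% were unchanged genes. The simulation does not cover smaller changes, such as those of most neighbours, or a share of called genes as large as here. Replicates of a group differed by more than sampling noise (chi-square per degree of freedom 2.83 to 11.1), and each counted once.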

Additional observations from a re-analysis of the deposited data

How the results depend on the processing

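The fall of sin-lncRNA kept its direction and call in all 18 alternative fits, with a log2 fold change of -2.99 to -2.70 except on the log2(RPM + 1) scale (-1.73) and the log2(RPM + 5) scale (-0.72). The number of neighbours called was 6 under quantile normalization, without an intensity trend, at an adjusted p under 0.01 and without control replicate 3 or knockdown replicate 1 or 3, and 7 otherwise apart from the block below. FAM65C lost its call in 7 of 18 fits, among them quantile normalization (limma adjusted p = 0.0511) and the fit without a trend (0.0947). DPM1 gained one in 1, and MOCS3 was called in none of 18. The number of genes called within 1 Mb was 9 to 14 and of partner genes 10 to 16, the lowest at an adjusted p under 0.01 for the partners. The 14 came from the fit without a filter on reads, with 9 higher and 5 lower. That fit took in all 52 listed genes, also those without reads, and its median log2 fold change over all genes was 0.604. In that fit, a gene without reads holds only the offset over the scaled library size, which is more RPM in the shallower knockdown libraries. The cause of the other shifts was not tested.

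Groups share replicate numbers in the labels. Same-numbered libraries had correlations of -0.15, -0.18 and 0.07 between their deviations, so no strong shared effect of replicate number was seen. Whether the libraries were prepared as pairs cannot be settled from so few values. With the replicate block, the log2 fold change of sin-lncRNA was -2.86, 6 neighbours, 10 genes within 1 Mb and 13 partner genes were called, and FAM65C was not (limma adjusted p = 0.089).

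Depth limits sin-lncRNA, with 11 to 15 reads in knockdown libraries, and PARD6B.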
